A study of Homo sapiens with 8 samples.

Results

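The 5 genes described here are GADD45A, GADD45B, PLK2, BMF and TNFRSF10B, taken as a fixed set of stress-induced growth arrest genes and death regulators of the cellular stress response. They were looked up by gene symbol in 3 tables of RNA sequencing results from MDA-MB-231 cells, an established line of triple-negative human breast cancer. The tables together hold 2998 different genes, of which these are 5. Each table compares 2 samples exposed to 1 compound with 2 samples left untreated. The compounds were brazilin, the phenolic precursor of the red dye of sappanwood and brazilwood, and a methylated and an acetylated derivative of it. Each was given at 20 µM from seeding on, with fresh compound every day, for 48 h, and the untreated cells were cultured for the same 48 h. The labels do not mention a solvent for the untreated cells. All groups come from 1 cell line. The labels do not describe the paired samples of a group as separate cultures, so the q-values below measure a spread between these samples that may be technical. In such bulk RNA, fewer cells of a kind and less RNA per cell cannot be told apart.

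Cells answer DNA damage and other stress by switching on genes that stop the cell cycle, repair DNA or start apoptosis. AP-1, ATF and NF-kB factors and the MAP kinases JNK and p38 are among the signals that reach such genes. GADD45A and GADD45B encode small acidic proteins that bind PCNA, CDK1 with cyclin B1, and the JNK and p38 activating kinase MAP3K4. PLK2 is a polo-like kinase of early G1 and centrosome duplication. BMF is a BH3-only protein, a class that starts mitochondrial apoptosis by binding the survival proteins of the BCL2 family, and it is held at the cytoskeleton by dynein light chain 2. TNFRSF10B, or death receptor 5, binds the ligand TRAIL (gene TNFSF10) and starts apoptosis through FADD and caspase 8.

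Promoter windows are shown for 3 of the 5 genes, 2 that were higher and 1 that was lower with brazilin, so that the results can be read beside the start of each gene. They are the RefSeq windows on GRCh38.p14 from 250 bases before to 50 bases after the annotated start, 5′ to 3′ on the strand of the gene. GADD45A and TNFRSF10B have no window here. The window of GADD45B is chr19:2475877-2476176 (plus strand), that of PLK2 is chr5:58460037-58460336 (minus strand), and the outer of the 2 windows of BMF is chr15:40108830-40109129 (minus strand). Capitals mark the matches to the searched motifs.
GADD45B: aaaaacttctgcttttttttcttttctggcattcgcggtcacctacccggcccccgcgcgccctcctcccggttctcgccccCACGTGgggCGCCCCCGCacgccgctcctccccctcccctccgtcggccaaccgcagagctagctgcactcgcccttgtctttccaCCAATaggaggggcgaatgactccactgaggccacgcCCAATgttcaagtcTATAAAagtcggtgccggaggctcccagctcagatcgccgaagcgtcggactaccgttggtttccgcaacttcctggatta
PLK2: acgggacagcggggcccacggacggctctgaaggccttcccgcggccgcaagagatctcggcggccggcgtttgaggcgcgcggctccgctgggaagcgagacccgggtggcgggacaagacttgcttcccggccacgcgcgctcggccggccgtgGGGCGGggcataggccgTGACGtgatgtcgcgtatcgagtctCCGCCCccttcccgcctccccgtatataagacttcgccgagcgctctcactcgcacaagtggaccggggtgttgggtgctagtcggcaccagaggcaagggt
BMF: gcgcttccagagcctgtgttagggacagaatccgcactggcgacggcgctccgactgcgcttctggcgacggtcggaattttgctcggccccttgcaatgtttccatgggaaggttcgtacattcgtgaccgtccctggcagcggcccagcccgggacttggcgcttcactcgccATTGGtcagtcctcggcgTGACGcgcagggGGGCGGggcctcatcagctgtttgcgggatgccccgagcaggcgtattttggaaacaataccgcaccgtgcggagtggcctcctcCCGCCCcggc

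Both strands were searched for 11 motifs, which were the AP-1 site (TGANTCA), the CRE bound by ATF and CREB proteins (TGACGTCA) and its half-site (TGACG), which lies inside the CRE, the CCAAT box (CCAAT), the TATA box (TATAAA), the EGR site (GCGGGGGCG), the GC box (GGGCGG), the antioxidant response element core (TGACNNNGC), the FOXO site (GTAAACA), the E-box (CACGTG) and the octamer (ATTTGCAT). The GADD45B window held a TATA box from base -31, CCAAT boxes from -82 and -45, an E-box from -168 and an EGR site from -159. Of all 35116 windows 11.5% held a TATA box, 34.6% a CCAAT box, 7.26% an E-box and 5.07% an EGR site. The PLK2 window held a CRE half-site from -77 (24.6% of all windows) and GC boxes from -94 and -52 (44.95%). The outer BMF window held a CCAAT box from -75, a CRE half-site from -57 and GC boxes from -45 and 41. The inner BMF window held none of the 11 motifs. No full CRE (1.85% of all windows) and no AP-1 site (7.71%) was matched in these windows. A match is a description of letters and shows no binding.

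With brazilin, GADD45A, GADD45B and PLK2 rose and BMF and TNFRSF10B fell, and all 5 are in the authors' deposited table for that compound. The table lists only genes that passed the authors' criteria, which are apparent as a q-value under 0.05 and an absolute log2 fold change of at least 0.5, so a gene outside it has no value. It holds 14.3% of the 20056 protein-coding genes of RefSeq, and how many genes the authors tested is unknown here. Of its 2885 genes 47.6% were higher and 52.4% lower with brazilin, so the 3 rises and 2 falls are close to the table's own division. The 5 genes were picked with this table known, and their being in it is therefore a description. The gene lists used below were also written with earlier results of these data known. Counts from them are descriptions too, to be read beside the shares given here. Levels are in FPKM, fragment counts scaled by transcript length and library size. All levels, fold changes and q-values of single genes in this text were copied from the authors' deposited table of the named compound. FPKM values are group means without values per sample, so no spread between replicates can be given. The interval beside a fold change is a 95% interval derived from the authors' q-value and is at least as wide as the true one provided that they tested unshrunken fold changes by a Wald test.

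Among the 5 genes, TNFRSF10B had the highest level in untreated cells, at 88.1 FPKM, followed by PLK2 at 85.0 FPKM, GADD45A at 37.6 FPKM, GADD45B at 26.3 FPKM and BMF at 9.58 FPKM. With brazilin the order was PLK2 at 186 FPKM, GADD45A at 109.7 FPKM, GADD45B at 77.8 FPKM, TNFRSF10B at 63.1 FPKM and BMF at 4.965 FPKM. The receptor gene thus went from the top of the group to below all 3 arrest genes. Whether neighbours in these orders differ beyond replicate spread cannot be told from group means.

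**Figure D1:**
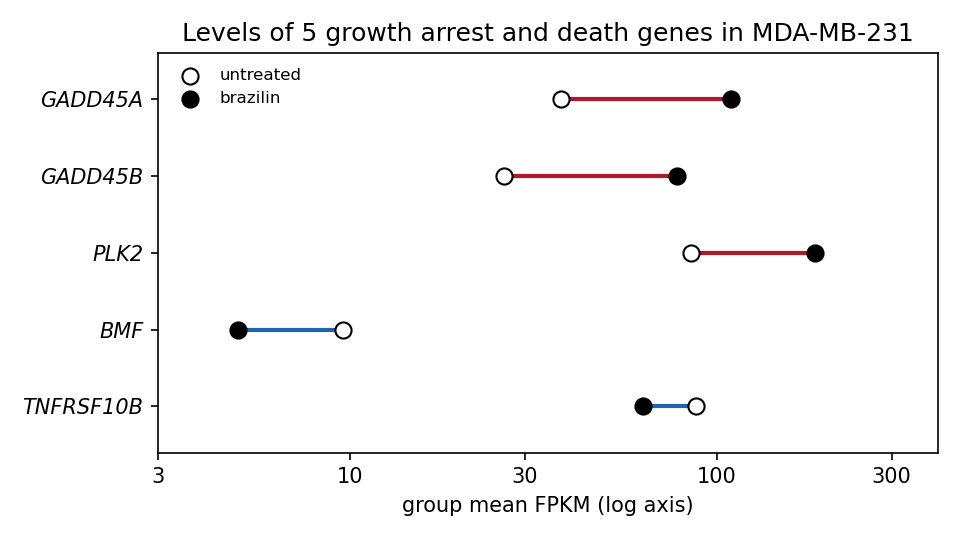
Mean FPKM of each gene on a log axis, with an open circle for untreated cells, a filled circle for brazilin, and a line that is red for a rise and blue for a fall. Each circle is the authors' mean of 2 samples, and the arrest genes move to the right (GADD45A from 37.6 to 109.7 FPKM) while TNFRSF10B moves to the left, from 88.1 to 63.1 FPKM.

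GADD45A rose from 37.6 to 109.7 FPKM with brazilin, a 2.75-fold change (log2 1.46, interval 1.32 to 1.59, q = 8.33e-102). GADD45B rose from 26.3 to 77.8 FPKM, or 2.79-fold (log2 1.48, interval 1.33 to 1.63, q = 9.54e-81). The fold changes of the 2 genes differ by 0.02 on the log2 scale, well inside either interval. By the size of the rise they stand 305th and 299th among the 1374 higher genes, and by q-value 41st and 72nd of the 2885. The third family member, GADD45G, was also higher, at 0.455 FPKM in untreated cells and 2.625 FPKM with brazilin (log2 2.50, interval 1.53 to 3.46). Its level with brazilin was still far below that of the other two, and the summed level of the family went from 64.4 to 190.1 FPKM. The 3 GADD45 proteins share 57.5% (A and B), 58.3% (A and G) and 59.1% (B and G) of their aligned residues, so none is a near-identical copy of another. GADD45A lies at chr1:67685201-67688334 and GADD45B at chr19:2476127-2478257 (GRCh38.p14, both on the plus strand), and no annotated gene overlaps either.

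The list of GADD45 partners gave values for few others. Of 12 genes on it 5 were in the brazilin table, 4 higher and 1 lower, and 3 of these are the GADD45 genes themselves. GADD45GIP1, whose protein binds GADD45 proteins and belongs to the mitochondrial ribosome, rose from 26.4 to 49.2 FPKM (log2 0.81, interval 0.65 to 0.97). CDK1, the mitotic kinase that GADD45A can inhibit, fell from 60.05 to 41.5 FPKM (log2 -0.62, interval -0.75 to -0.49). PCNA, CCNB1 and MAP3K4 had no entry in the table.

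PLK2 rose from 85.0 to 186 FPKM with brazilin, a 2.05-fold change (log2 1.04, interval 0.94 to 1.13, q = 8.20e-98). Of the 5 genes it gained the most in absolute level, 100.8 FPKM, although its fold change was smaller than those of both GADD45 genes, whose intervals do not reach its own. It stands 43rd by q-value in the table and 503rd by size among the higher genes. PLK2 lies at chr5:58453982-58460086 on the minus strand (GRCh38.p14), with no overlapping gene. The nearest paralogue, PLK3, shares 51.6% of its aligned residues, and the mitotic kinase PLK1 shares 43.2%. Of the 11 genes of polo-like kinases and their partners only PLK2 and CEP192 were in the table. CEP192, a scaffold that recruits polo-like kinases to the centrosome, fell from 7.69 to 5.61 FPKM (log2 -0.56, interval -0.72 to -0.40).

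BMF fell from 9.58 to 4.965 FPKM with brazilin, a 2.05-fold decrease (log2 -1.04, interval -1.22 to -0.86, q = 9.94e-31). The size of its change and that of PLK2 have overlapping intervals, with opposite signs. It stands 250th by size among the 1511 lower genes. BMF lies at chr15:40087890-40108879 on the minus strand (GRCh38.p14), and its exons overlap those of the antisense gene BMF-AS1. The sources used here do not state whether the libraries kept strand, so reads of the 2 genes cannot be told apart.

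Of the 9 other BH3-only genes on the list 3 were in the brazilin table, 1 higher and 2 lower. With BMF included, the 4 listed genes were 1 higher and 3 lower, with a median log2 fold change of -0.69. In the whole table the median was -0.51 for all genes, -0.68 for the lower genes and 0.83 for the higher genes. A median of 4 genes of both directions says little about the class. BNIP3 and BNIP3L, the mitophagy receptors of the class and well-known hypoxia genes, fell from 304 to 203 FPKM (log2 -0.67) and from 72.4 to 47.0 FPKM (log2 -0.72). BCL2L11, which encodes BIM, was higher, at 4.545 and 10.3 FPKM. Its deposited fold change (log2 0.81, interval 0.62 to 0.99) lies below the ratio of its FPKM means (log2 1.18), with a fold change minus ratio of -0.38 where the median of the table is -0.09. BBC3 and PMAIP1, the BH3-only genes that encode PUMA and NOXA, had no entry in the table. Among 11 genes of BMF's binding partners and the larger BCL2 family only BOK, a relative of BAX and BAK1, was listed, and it rose from 11.7 to 19.2 FPKM (log2 0.65, interval 0.47 to 0.83).

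TNFRSF10B fell from 88.1 to 63.1 FPKM with brazilin, a 1.49-fold decrease (log2 -0.57, interval -0.67 to -0.47, q = 1.32e-28). This was the smallest change of the 5, 1128th by size among the 1511 lower genes, and 27.5% of all listed genes had an absolute log2 fold change below 0.6. By the ratio of the authors' FPKM means the change was -0.48 on the log2 scale, which is under the apparent minimum of 0.5. TNFRSF10B is on the minus strand of chromosome 8 (23020133 to 23069031, GRCh38.p14). An exon there overlaps the opposite-strand gene RHOBTB2, and the gene body overlaps the antisense gene AC107959.2. Neither has an entry in the table, so neither has a value. As for BMF, reads from the bases shared with RHOBTB2 cannot be told apart, since strand is not stated. Of the related TRAIL receptors TNFRSF10A, TNFRSF10C and TNFRSF10D none had an entry. The closest of them, TNFRSF10A, shares 58.6% of the aligned residues.

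The TRAIL ligand gene fell along with its receptor. TNFSF10 went from 8.765 to 4.505 FPKM with brazilin (log2 -1.05, interval -1.36 to -0.74). TNFRSF11B, the secreted decoy osteoprotegerin that binds TRAIL as well as RANKL, fell from 8.94 to 4.195 FPKM (log2 -1.18, interval -1.46 to -0.90). TNFSF15, the ligand of death receptor 3, fell from 3.15 to 1.99 FPKM (log2 -0.76). In contrast FAS, the receptor of the FAS ligand, was slightly higher at 1.42 and 2.235 FPKM (log2 0.51, interval 0.03 to 0.99). TNFRSF12A, which lacks a death domain and binds TWEAK, rose from 87.3 to 131 FPKM (log2 0.51, interval 0.37 to 0.64). Of the 17 genes of death receptors and ligands 9 were in the table, 5 of them higher and 4 lower, TNFRSF10B included. Without it 8 of 16 were listed, 5 higher and 3 lower. Of the 5 higher genes 2 had a q-value under 0.001, TNFRSF12A and TNFSF9, the latter at 6.22 and 10.7 FPKM and named after its values were seen.

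Downstream of the receptors, none of 20 genes on a list of death receptor signalling and caspases was in any table, FADD, CFLAR and CASP8 included. Related genes that are not on this list were in the brazilin table. CASP8AP2 was lower (log2 -0.53, q = 3.46e-07) and CARD16 higher (log2 0.78, q = 0.0224), both added with the results known. The absence therefore describes the list only. Of 11 inhibitors of apoptosis 3 were in the brazilin table. BIRC3, an NF-kB induced ubiquitin ligase that protects from TNF-induced death, rose from 10.75 to 23.0 FPKM (log2 1.00, interval 0.86 to 1.15). XIAP, the direct caspase inhibitor, fell from 16.0 to 11.6 FPKM (log2 -0.55, interval -0.68 to -0.42). NAIP, an inflammasome sensor of the same family, fell from 2.67 to 1.745 FPKM (log2 -0.71).

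**Figure D2:**
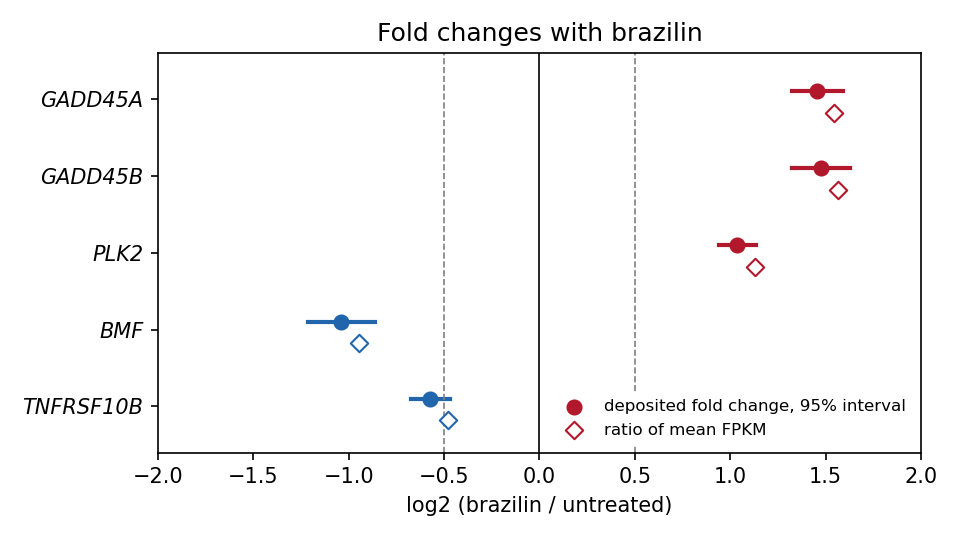
Log2 of brazilin over untreated for each gene, as a filled circle with the 95% interval for the deposited fold change and an open diamond for the ratio of mean FPKM. Dashed lines mark the apparent minimum of 0.5, and each diamond lies to the right of its circle by 0.08 to 0.09, which puts TNFRSF10B at -0.48, inside the dashed lines.

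The deposited fold changes of the 5 genes lay below the ratios of their FPKM means by 0.08 to 0.09 on the log2 scale, as in the brazilin table as a whole, where the median gap is 0.09. By that ratio GADD45A and GADD45B were higher by 1.55 and 1.56, PLK2 by 1.13, and BMF was at -0.95. If the minimum of 0.5 is applied to the ratio instead, the table keeps 1371 higher and 977 lower genes, 58.4% of them higher instead of 47.6%, and 4 of the 5 genes described here.

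At a minimum of 2-fold as deposited, 18.5% of the listed genes qualified as higher and 9.60% as lower, and 4 of the 5 genes passed, GADD45A, GADD45B and PLK2 among the higher and BMF among the lower. The 2 listed genes most like each of the 5, by distance in log2 untreated FPKM and log2 fold change over these 2 groups, were JUNB and BOP1 for GADD45A, TUBB2A and POLR2A for GADD45B, BOLA2 and ATP5MC1 for PLK2, MAMDC2 and PGPEP1 for BMF, and ADGRE5 and SDF2L1 for TNFRSF10B. JUNB, an AP-1 factor gene, went from 32.5 to 84.7 FPKM (log2 1.29), the nearest to GADD45A. ADGRE5, an adhesion receptor gene, went from 85.4 to 62.0 FPKM (log2 -0.56), the nearest to TNFRSF10B.

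**Figure D3:**
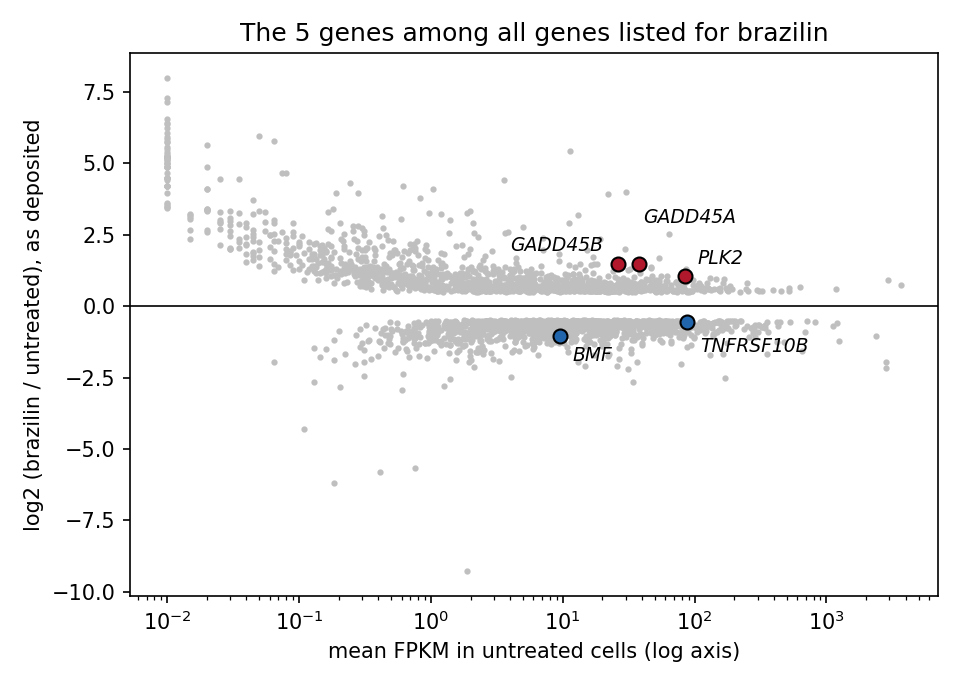
Deposited log2 fold change against mean FPKM in untreated cells (log axis) for the 2885 genes listed for brazilin, in grey, with the 5 genes in red (higher) or blue (lower). The empty band around 0 is the apparent minimum of 0.5, and TNFRSF10B, at -0.57, lies at its lower edge.

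Direction in the brazilin table went with transcript length, and the 5 genes follow the same order. Transcripts were matched for 2866 genes (99.3%) and divided into 5 classes of length, an analysis chosen after seeing the data. In the shortest class 71.4% of genes were higher and in the longest 21.5%. GADD45B and GADD45A, with transcripts of 1373 and 1496 bases, are in the shortest class. PLK2, of 2960 bases, is in the middle class, where 47.1% were higher, and TNFRSF10B and BMF, of 4146 and 4687 bases, are in the fourth class, where 35.3% were higher. By GC content the share higher ran from 20.4% in the lowest class to 75.6% in the highest. The order of the 5 genes by GC content differs from that by fold change, since BMF (54.8%) and GADD45B (57.4%) are in the same class. The part of length and GC content in the changes of the 5 genes was not tested.

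**Figure D4:**
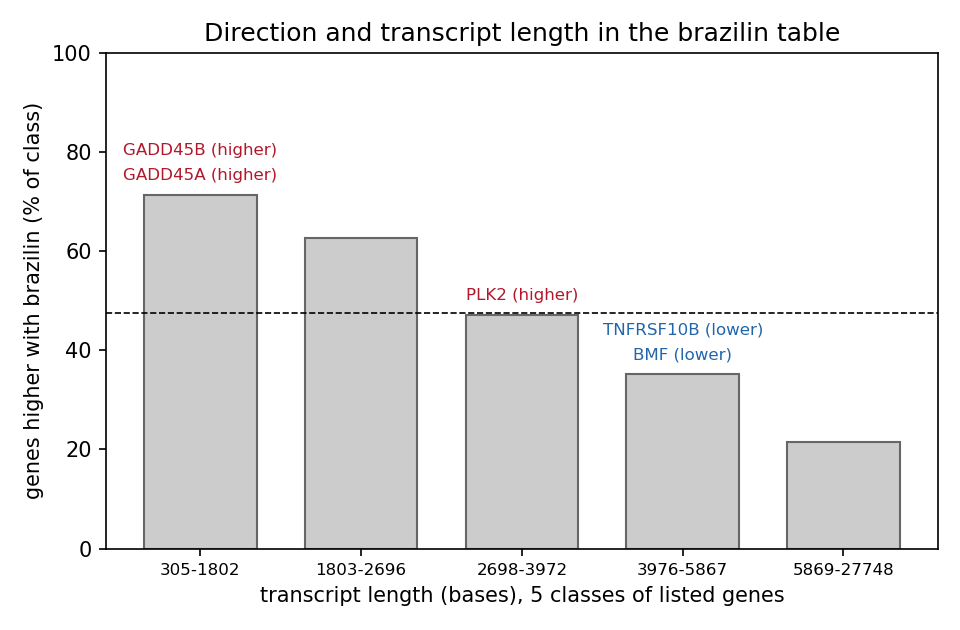
Share of listed genes that were higher with brazilin in 5 classes of transcript length (in bases), with the class of each of the 5 genes marked above its bar. The dashed line is the 47.6% of the whole table, and the bars fall from 71.4% in the shortest to 21.5% in the longest class.

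A few further listed genes of stress and death are given as single values, with no count for a group. CCNG2, a cyclin of growth arrest, fell from 53.6 to 29.4 FPKM (log2 -0.98, interval -1.10 to -0.86). GDF15, a secreted stress cytokine, fell from 63.3 to 37.3 FPKM (log2 -0.84, interval -1.01 to -0.68). Other listed genes of growth arrest were higher, at low levels. BTG2 was at 0.26 and 1.435 FPKM (log2 2.36, interval 1.66 to 3.06). PHLDA3 was at 1.70 and 3.18 FPKM (log2 0.82, interval 0.42 to 1.21). Both were added with the results known, and these single values give no direction for growth arrest genes in general. AEN, a nuclease of apoptosis, rose from 15.6 to 29.7 FPKM (log2 0.83, interval 0.69 to 0.97). BAX and APAF1, which act at the mitochondrial step of apoptosis, had no entry in the table.

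Of 19 genes on a list of CDKs, CDK inhibitors and cell cycle cyclins 2 were in the table, both lower, and the CDK inhibitor gene CDKN1A had no entry. Besides CDK1, CDKN1B, which encodes the CDK inhibitor p27, fell from 50.5 to 35.1 FPKM (log2 -0.61, interval -0.74 to -0.49). Cyclin genes that are not on this list went both ways in the brazilin table. CCNA1 was higher (log2 1.13, q = 3.05e-09) and CCNF lower (log2 -0.58, q = 5.25e-10), and both were added with the results known. The count therefore describes the list only and gives no direction for CDK and cyclin genes in general.

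The list of stress transcription factors includes factors known to act on GADD45 genes. Of its 25 genes 10 were in the brazilin table, 9 higher and 1 lower, and the other 15 have no value. Genes of the same factor families that are not on this list went both ways. KLF10 was higher (log2 0.53, q = 1.68e-17). ATF7 (log2 -0.68, q = 2.65e-19) and KLF9 (log2 -0.53, q = 3.72e-07) were lower, and all were added with the results known. The count of the list therefore gives no direction for stress factors in general. The 10 listed factors had a median log2 fold change of 1.32. In the whole table the median was 0.83 for the higher genes and -0.68 for the lower genes. The median of all its genes, -0.51, lies at the edge of the empty band set by the minimum of 0.5. EGR1 rose from 13.0 to 125 FPKM (log2 3.18), ATF3 from 29.8 to 128 FPKM (log2 2.01), JUN from 47.0 to 128 FPKM (log2 1.35) and FOS from 7.035 to 29.4 FPKM (log2 1.97). The interval of JUN (1.25 to 1.45) and that of JUNB (1.16 to 1.43) overlap those of GADD45A and GADD45B. JUNB had been picked above as near to GADD45A partly by its fold change, so its overlap was given beforehand. No other of the 10 listed factors had an interval that overlaps either. The intervals of EGR1 (3.01 to 3.35), ATF3 (1.88 to 2.14) and FOS (1.79 to 2.16) lie above both. Those of FOSL1 (0.49 to 0.71) and KLF6 (0.44 to 0.65) lie below. Whether any of these factors acted on the GADD45 genes here was not tested. The lower gene was FOXO4, at 5.925 and 3.83 FPKM and named after its value was seen.

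The MAP kinase cascade to JNK and p38 gave 7 of 20 genes, 3 higher and 4 lower. MAP2K3, an activator of p38, rose from 45.7 to 90.5 FPKM (log2 0.90, interval 0.78 to 1.02). The phosphatase gene DUSP1, whose product switches p38 and JNK off, rose from 42.5 to 86.8 FPKM (log2 0.94, interval 0.82 to 1.06). DUSP10, another phosphatase of JNK and p38, was higher at 14.1 and 25.1 FPKM, while DUSP16 was lower at 20.5 and 12.6 FPKM. MAPK13, a p38 isoform gene, fell from 14.9 to 10.6 FPKM (log2 -0.58). The other lower genes were the kinase genes MAP3K1 (log2 -0.54) and MAP3K5 (log2 -0.57), named after their values were seen.

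Of 15 genes of growth arrest, damage and early stress 9 were listed, 6 higher and 3 lower, and GADD45A and GADD45B are among the higher. Without them 7 of 13 were listed, 4 higher and 3 lower. IER2, an immediate early gene, rose from 46.9 to 126.6 FPKM (log2 1.34, interval 1.23 to 1.46), beside the GADD45 genes. DDIT4, an inhibitor of mTORC1, fell from 249 to 165 FPKM (log2 -0.68, interval -0.79 to -0.58). TRIB3, a pseudokinase of the ATF4 response, fell from 115 to 70.2 FPKM (log2 -0.79, interval -0.91 to -0.66). DDIT3 and PPP1R15A, which were named with GADD45 genes for their induction by damage, had no entry.

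**Figure D5:**
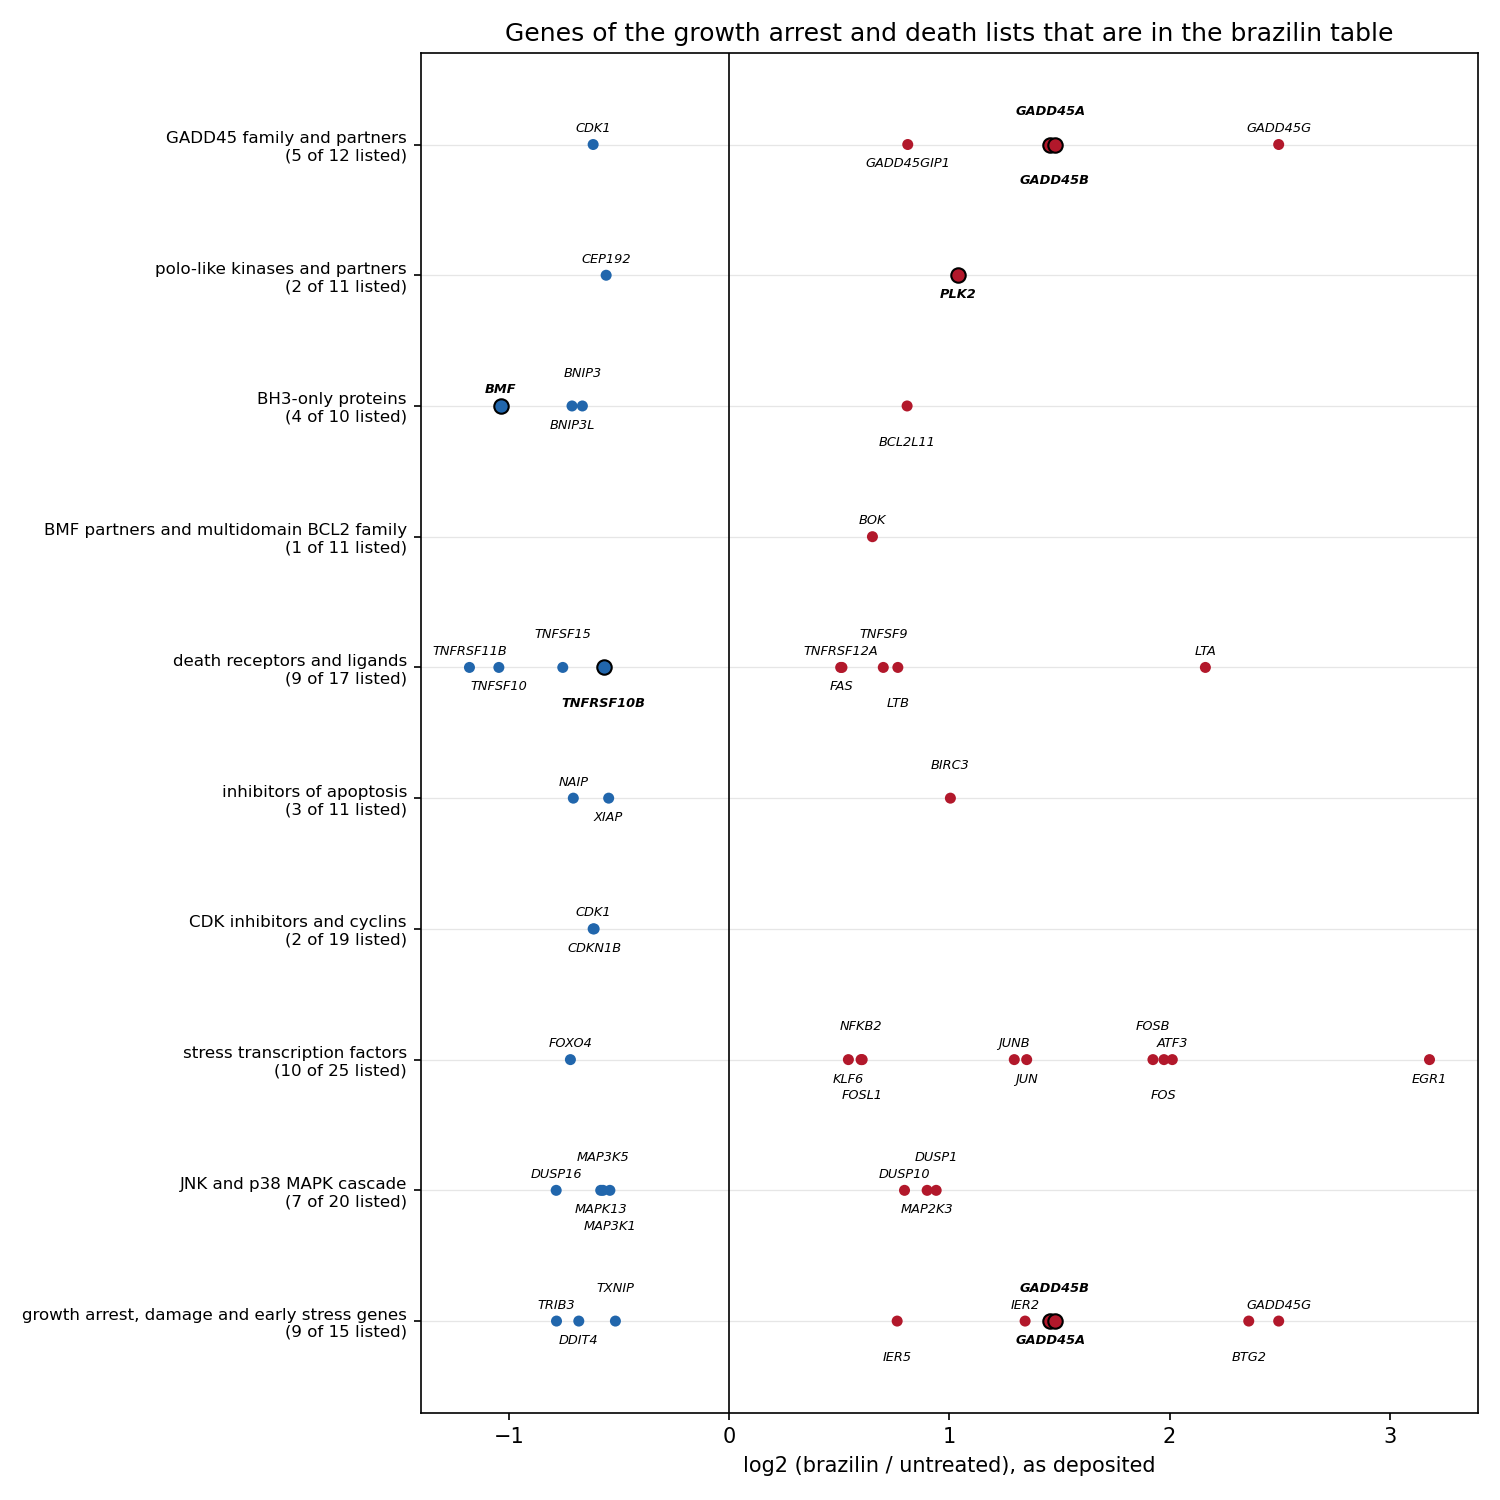
Deposited log2 fold change with brazilin of every listed gene in 10 gene lists, 1 line a list, in red for higher and blue for lower genes, with the 5 genes outlined in black. The list of death receptor signalling and caspases has no listed gene and no line. On the stress transcription factor list, 9 of the 10 listed genes lie to the right of 0, with EGR1 the farthest at 3.18. Factors that are not on the list are not drawn.

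None of the 5 genes was in the tables of the methylated compound (11 genes, 0.0548% of RefSeq protein-coding genes) or the acetylated compound (193 genes, 187 of them protein-coding, 0.932%). No fold change of theirs with either derivative is therefore known, and no difference between compounds could be tested for them. Missing a table does not show that a gene was unchanged. At the same dose and time, genes of the lists around them that appeared in more than 1 table could be compared, with the untreated samples shared. TNFSF10 fell with acetylated brazilin too, from 8.765 to 5.27 FPKM (log2 -0.75, interval -1.07 to -0.43), and its difference between brazilin and the acetylated compound was -0.30 (interval -0.74 to 0.15, adjusted p = 0.336 over the 84 genes both tables share). TNFSF15 was lower with acetylated brazilin at 3.15 and 1.805 FPKM, a difference of 0.07 (interval -0.30 to 0.43, adjusted p = 0.873). PIDD1, an adaptor gene with a death domain, was listed only for the acetylated compound, at 3.225 and 4.685 FPKM (log2 0.56, interval 0.24 to 0.89). TXNIP, an inhibitor of thioredoxin from the early stress list, was the 1 listed gene of these lists in all 3 tables. It was at 224 FPKM in untreated cells, 167 FPKM with brazilin, 136 FPKM with the acetylated and 119 FPKM with the methylated compound. Its log2 fold change with brazilin was -0.52, and -0.43 by the ratio of mean FPKM, which is under the apparent minimum of 0.5. Its fall was smaller with brazilin than with the acetylated compound by 0.21 on the log2 scale (interval 0.07 to 0.35, adjusted p = 0.00730), and the difference from the methylated compound was 0.40 (interval -0.01 to 0.81, adjusted p = 0.0890 over 5 shared genes). These 4 differences come from the errors derived above, and the shared controls make those errors too large.

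The identity of the cells could be checked only through listed genes. Of 8 markers of a mesenchymal-like breast cancer line CAV1 and CD44 were listed, at 132 to 180 FPKM in untreated cells and 226 to 276 FPKM with brazilin. Of 10 luminal or epithelial, 5 leukocyte and 5 fibroblast markers none was listed. A marker without an entry has no value, so this excludes no cell type. The endothelial markers KDR and PECAM1 stood at 0.595 to 1.345 FPKM in untreated cells and 0.905 to 1.13 FPKM with brazilin.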

How the data were processed

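RNA libraries of 8 samples in 4 groups of 2 were prepared by BGI Americas, per the labels' protocols. Tools listed in the submitters' processing notes are DESeq2, RSEM, Bowtie, StringTie and HISAT, without versions, and the builds listed are mm10, hg38 and GRCh38. The authors deposited, per the file headers, group mean FPKM, a log2 fold change (treated over untreated by its sign) and a q-value (their adjusted p-value) for genes past their criteria. No values per sample or read totals were used here, so depth is unknown and no model was fitted.

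Standard errors were bounded as the absolute fold change over the normal quantile of the q-value (1e-300 where listed at 0). Differences between compounds were divided by the root of the summed squared bounds, two-sided, with Benjamini-Hochberg adjustment over shared genes. The calculation was tested on simulated data. The members and the gene lists (199 genes, all matched to RefSeq) were chosen with earlier results of these data known. Named were the 5 genes, the listed genes of each list (the 5 smallest q-values in longer ones), any list gene in the derivatives' tables, and the 2 nearest genes of each member. Some lists, genes and a motif are not reported here. Transcripts were the principal ones of GENCODE release 29, and proteins were aligned by BLOSUM62 with Biopython 1.88. RefSeq proteins were planned for this and GENCODE coding sequences were used instead. SciPy 1.17.1 and pandas 2.3.3 were used. Alternatives were other thresholds on q-value, fold change and FPKM, the FPKM ratio, and matching by gene ID.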

Additional observations from a re-analysis of the deposited data

Results flagged for a closer look

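Of the lists only TXNIP, TNFSF10 and TNFSF15 had values for both brazilin and acetylated brazilin. Among these only TXNIP differed by a test of the difference itself. Its log2 fold change was -0.52 with brazilin and -0.73 with acetylated brazilin. By the ratio of mean FPKM the brazilin value was -0.43, under the apparent minimum of 0.5. TXNIP fell less with brazilin, by 0.21 on the log2 scale (interval 0.07 to 0.35, adjusted p = 0.00730 over 84 shared genes). By the ratio of mean FPKM the same difference was 0.29 (adjusted p = 0.000165).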

How the results depend on the processing

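All 5 genes kept their direction, but no setting tried for brazilin could have reversed one. The ratio and the offset move a fold change by 0.08 to 0.09, and the smallest change was -0.57. The other settings only drop or match genes. The largest q-value of the 5 was 1.32e-28, so the q-value settings could drop none of them. By the log2 ratio of mean FPKM, and by the fold change minus the table's median offset, TNFRSF10B was at -0.48 both times and so under the minimum of 0.5, while the other 4 genes stayed past it. The count of the 5 genes listed for brazilin was 5 with q-values under 0.01 or 0.001, with a minimum of 1 FPKM and by gene ID, and 4 with a minimum of 2-fold or with the minimum of 0.5 applied to the ratio of mean FPKM, a setting chosen after seeing the data. It was also 4 at a minimum of 10 FPKM, where BMF is lost. In the whole table a minimum of 2-fold left 533 higher and 277 lower genes, and the ratio left 977 lower. Of the recomputed list counts 119 stayed within 1.5 times and 21 did not. Among them the higher genes of the death receptor list went from 5 to 2 at q-values under 0.001. The difference of TXNIP between brazilin and methylated brazilin was 0.48 by the ratio of mean FPKM and then past the threshold (adjusted p = 0.0339). No paired analysis was possible because the tables hold group means only. For the same reason no replicate could be left out in turn. Depth is unknown, so what a low FPKM can show is unknown as well.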
